A study of Homo sapiens with 12 samples.

Results

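ATAC-seq, which marks open chromatin by where the Tn5 transposase inserts adaptors, was measured in KO-52 (KO52 in the labels), an acute myeloid leukemia cell line with mutations in both CEBPA alleles. The EV-only regions were chosen by the deposited peak lists themselves. They have a peak in both lists of cells that carry the empty vector (EV). They have no peak in any of the 4 lists of cells given the p42 or the p30 isoform of C/EBPα by a vector. Merging all peaks of chromosomes 1 to 22 and X that share at least 1 base gave 355051 common regions, and 1983 of them met the rule, which is 0.559% of the total. The same rule applied to the p42 lists gave 16258 p42-only regions, or 4.58%, and applied to the p30 lists it gave 2190 p30-only regions, or 0.617%. These shares are fixed by the rule and carry no test.

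The 6 conditions were EV, p42 and p30 cells, each in the vehicle DMSO and after 8 h of tunicamycin (Tm) at 2 µg/mL, an inhibitor of N-linked glycosylation that causes endoplasmic reticulum stress. Each condition had 2 replicates of 50000 nuclei, and all groups share the KO-52 background and its mutated alleles. The paper states that cells with such biallelic mutations typically express p30 as their only isoform with an intact DNA-binding domain. It describes p30 as overexpressed in KO-52 cells given p30, so EV cells are not taken here as free of p30. The methods describe p42 and p30 as ERT2 fusions in GFP-sorted KO-52 cells that were moved into the nucleus with 4-hydroxytamoxifen, which the EV controls also received, whereas the labels name no inducer. All 12 libraries come from a single cell line. Only the peak list called on the pooled replicates of each condition was used, so no spread between replicates stands behind any value, and no difference below was tested over samples. The depth estimated from the lists, under an assumed tag length, was lowest in EV DMSO, at 22250000 tags, and highest in p42 DMSO, at 29980000, with 25130000 in EV Tm.

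C/EBPα is a bZIP transcription factor that drives granulocyte and monocyte differentiation. Its full-length form, p42, carries amino-terminal transactivation domains that the shorter p30 lacks, while another such domain is shared by both. AP-1 is a family of dimers of FOS, JUN, ATF and BATF proteins that are induced by stress and growth signals. Many of these dimers bind a 7-base palindrome, and the word used for AP-1 here covers only that form of site. GATA factors read the core word GATA, with GATA2 acting in stem and progenitor cells and mast cells, and GATA1 in the erythroid and megakaryocytic lineages. RUNX1, PU.1 and the HOX and MEIS proteins are further regulators of blood progenitors.

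The letters searched for were TGANTCA for AP-1 and AGATAAG for GATA. The search covered both strands within 100 bp of the summit of each region, taken from its peak with the highest −log10 q. Both words are shown in capitals in the 6 windows printed here, which reach 100 bases to either side of the summit and are taken from the plus strand of hg38. The first 4 are those of the 10 strongest EV-only regions that hold an AP-1 word. The KIAA0825 window is among the strongest that hold both words, and the SSBP2 window is among the strongest that hold GATA without AP-1. These last 2 were picked after their values were seen. The LGR4 window is chr11:27388153-27388353 and lies in an intron of LGR4, a receptor for R-spondins. The COA8 window, chr14:103597712-103597912, is intronic to COA8, a gene of cytochrome c oxidase assembly. Neither the IPO8 window, chr12:30529569-30529769, nor the TSPAN15 window, chr10:69446705-69446905, lies in an annotated gene. The KIAA0825 window is chr5:94517796-94517996 and the SSBP2 window chr5:81553609-81553809, each in an intron of the gene it is named for.
LGR4 intron: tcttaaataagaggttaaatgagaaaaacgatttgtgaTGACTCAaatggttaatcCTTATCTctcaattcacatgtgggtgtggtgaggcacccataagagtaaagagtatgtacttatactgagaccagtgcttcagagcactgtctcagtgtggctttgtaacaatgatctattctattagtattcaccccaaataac
COA8 intron: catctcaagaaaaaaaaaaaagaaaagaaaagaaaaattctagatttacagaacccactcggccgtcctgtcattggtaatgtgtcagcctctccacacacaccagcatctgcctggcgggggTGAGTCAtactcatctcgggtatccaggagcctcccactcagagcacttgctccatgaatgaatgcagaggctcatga
near IPO8: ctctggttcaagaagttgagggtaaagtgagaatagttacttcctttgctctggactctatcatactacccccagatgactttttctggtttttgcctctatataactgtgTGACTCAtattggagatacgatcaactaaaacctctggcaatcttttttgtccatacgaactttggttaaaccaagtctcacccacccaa
upstream of TSPAN15: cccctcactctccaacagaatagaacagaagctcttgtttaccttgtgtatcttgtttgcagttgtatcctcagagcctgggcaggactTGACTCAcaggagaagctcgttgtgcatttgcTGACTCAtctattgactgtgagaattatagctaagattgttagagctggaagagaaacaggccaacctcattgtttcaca
KIAA0825 intron: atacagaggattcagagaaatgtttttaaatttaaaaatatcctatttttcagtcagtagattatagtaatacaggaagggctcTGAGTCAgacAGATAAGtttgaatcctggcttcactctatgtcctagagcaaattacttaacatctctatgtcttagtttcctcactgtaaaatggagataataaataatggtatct
SSBP2 intron: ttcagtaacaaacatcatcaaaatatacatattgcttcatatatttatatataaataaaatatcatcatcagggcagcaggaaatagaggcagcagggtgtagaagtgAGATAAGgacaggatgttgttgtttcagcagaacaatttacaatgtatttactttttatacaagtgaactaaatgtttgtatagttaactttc

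These windows differed in the number and place of the words. The TSPAN15 window held 2 AP-1 words, the nearer 8 bp from the summit, and the IPO8 window held 1 word 14 bp away. In the COA8 window the AP-1 word lay 26 bp from the summit. The KIAA0825 window held an AP-1 word 13 bp and a GATA word 3 bp from the summit. The LGR4 window held both words too, at 59 bp for AP-1 and 41 bp for GATA. The SSBP2 window held 1 GATA word without AP-1, at 11 bp. The nearest p42 or p30 peak lay 142 bp from the TSPAN15 region, 149 bp from SSBP2 and 326 bp from KIAA0825. For LGR4, IPO8 and COA8 it lay 2116, 4112 and 8978 bp away. A match describes the letters and does not show that a factor was bound.

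The EV-only regions had low summits in both EV lists. The height of a summit, the number of tags stacked there, was recovered as a whole number for 100% of the peaks in each list. In the EV DMSO list the regions ran from 4 to 26 tags with a median of 6, and in the EV Tm list from 4 to 28 with the same median of 6. The fewest tags that were called at the lowest background were 4 in each list, so most members stood only a few tags above the limit of detection. In 1492 of the 1983 regions, or 75.2%, neither list exceeded 8 tags, and in 148, or 7.46%, both lists reached 10. For the p42-only regions the corresponding shares were 49.9% and 16.2%, and for the p30-only regions they were 72.6% and 9.22%. The median EV-only peak ranked at percentile 21.9 of the EV DMSO list and 20 of the EV Tm list by −log10 q, and the highest-ranking stood at percentiles 66.2 and 63.6.

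Neither treatment gave the higher summit in most regions. The EV Tm list was higher in 831 regions, the EV DMSO list in 705, and 447 had the same number of tags in both, while the estimated depth of the EV Tm list was 1.13 times that of the EV DMSO list. Across the 1983 regions the heights in both lists had a Pearson correlation of 0.731, a description over regions that share 2 libraries per list and the same calling limit. The p42-only regions were less even, with 9749 of 16258 higher in DMSO and 3939 higher in Tm, in lists of an estimated 29980000 and 25440000 tags.

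The rule turns on small differences at its edge. The member nearest to the limit, on chromosome 20 at 33014655 to 33014920, had −log10 q of 1.31 with 4 tags in EV DMSO and 2.51 with 5 tags in EV Tm. A region just outside, on chromosome 13 at 81742132 to 81742261, had 3.68 with 7 tags and 5.88 with 10 tags in the EV lists, and was excluded by a p42 Tm peak of 5 tags at −log10 q 1.31. Another, on chromosome X at 68438706 to 68438901, had 6 and 10 tags in the EV lists and was excluded by a p30 DMSO peak of 5 tags. In all, 4094 regions had a peak in both EV lists and in 1 other list, more than the 1983 with none. A region without a called peak can still be open below the limit, so the label "open in EV lists only" was kept in the sense of called peaks. Only 58 members reached −log10 q of 5 in both lists and none reached 10, beside 3209 and 324 of the p42-only regions and 67 and 0 of the p30-only regions.

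The number of EV-only regions was not high among pairs of lists. Regions held by exactly 2 lists were counted for all 15 pairs, 12 of which join lists of different lines. The pair of EV lists ranked at place 9 with its 1983 regions. Pairs across lines ran from 1155, for EV DMSO with p42 Tm, to 4893, for p42 DMSO with p30 DMSO, with a median of 2072. The EV DMSO list shared more regions with p42 DMSO alone (2810) and with p30 DMSO alone (2437) than with EV Tm alone. The order stayed at place 9 when −log10 q of 3 was asked of both lists, with 850 EV-only regions. Only the p42 pair, with 16258, stood above every pair across lines.

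Of the regions that no p42 or p30 list held, few recurred between both EV lists. The EV DMSO list had 13817 such regions, and the EV Tm list held 1983 of these, which is 14.4% (95% Wilson interval 13.8 to 14.9). Seen from the EV Tm list the share was 12.2% of 16208 (11.7 to 12.7). Seen from the DMSO and the Tm list, the p30 line gave 10.2% and 16.2%, and the p42 line 25.6% and 48.0%. These intervals, and all that follow, cover the counting of regions only.

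The members were short, and about as many lay at start sites as among the p30-only regions. Their median width was 114 bp, with quartiles of 93.0 and 152 bp, against 147 bp over all common regions and 113 bp for the p30-only regions. The median GC content of the window was 44.3%, against 45.8% over all common regions. In total, 237 members, or 12% (10.6 to 13.5), lay within 1000 bp of an annotated start site of any gene. This distance was measured from the edge of the region. The share was 9.82% of the p42-only, 12.6% of the p30-only and 15.6% of all common regions. Introns held 57.2%, exons 7.77% and intergenic sequence 35.0%, and 31.8% lay beyond 100 kb from a protein-coding start site. The nearest peak of a p42 or p30 list lay a median of 1513 bp away, and 638 members, or 32.2%, had such a peak within 500 bp. Of the p30-only regions 30.6% had a peak of another line within that distance, and of the p42-only regions 14.6%.

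Members were spread over all 23 chromosomes. Their share of the common regions of a chromosome ran from 0.393% (0.278 to 0.554) on chromosome 19, with 32 members, to 0.736% (0.618 to 0.877) on chromosome 10, with 124. Of the 23 intervals, that of chromosome 10 lay above the overall 0.559%, and those of chromosomes 12 (0.346 to 0.557) and 19 lay just below it. Members rarely lay side by side, since the median gap to the next was 890270 bp and only 15 of 1960 gaps were under 10000 bp. The 31 bases at the summit occurred more than once in the genome for 116 members, or 5.85%, compared with 4.93% of all common regions.

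The sequence around the summits differed from that of the other sets, and sequence was no part of the rule. AP-1 words were found in 448 of 1983 members, 22.6% (20.8 to 24.5), and GATA words in 150, 7.56% (6.48 to 8.81). Over all common regions the shares were 12.9% and 3.22%, so that the ratios to all regions were 1.75 for AP-1 and 2.35 for GATA. The p30-only regions held AP-1 words in 15.4% (14 to 17) and GATA words in 2.37% (1.82 to 3.10), and the p42-only regions in 8.98% (8.55 to 9.43) and 2.61% (2.37 to 2.86). Of 27 motif words searched for, AP-1 and GATA were the 2 whose interval in the EV-only regions lay above those of all 3 other sets. The word of PU.1, GAGGAAGT, was the 1 that lay below all 3, at 4.44% (3.62 to 5.44) against 6.44% to 6.86%. PU.1 is an ETS factor of myeloid and B cells.

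C/EBP words were rare in the EV-only regions. TTGCACAA or TTGCGCAA was found in 9 members, 0.454% (0.239 to 0.860), compared with 6.03% (5.67 to 6.40) of the p42-only regions, 0.594% (0.347 to 1.01) of the p30-only regions and 1.58% of all. A low share was not particular to the EV-only regions. In regions held by exactly 2 lists of different lines it ran from 0.371% to 1.14%, with a median of 0.633%. Regions held by only the EV DMSO list gave 0.414%, and those held by only the EV Tm list 0.619%. The word TGATGCAA, which joins a C/EBP and an ATF site and is read by ATF4, occurred in 10 members, 0.504%, against 3.54% of the p42-only and 1.25% of all common regions. The C/EBP and AP-1 composite TGTTGCAA also occurred in 10, against 3.78% and 1.16%. The intervals of the EV-only and p30-only regions overlapped for all of these words.

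Other words with an interval above that of all common regions were RUNX (TGTGGTT) at 12.1%, HOX/PBX (TGATTNAT) at 4.84%, OCT (ATTTGCAT) at 2.67% and IRF (GAAANNGAA) at 8.88%, against 9.28%, 3.15%, 1.52% and 7.60% of all regions. For each of these the interval overlapped that of the p30-only regions. Letters of the HOX/PBX word can overlap those of AP-1, and 54 of its 96 members held an AP-1 word too. Among members without an AP-1 word its share was 2.74%, against 1.92% of such regions overall. The words of CTCF, at 0.202%, and SP/KLF (GGGCGGGG), at 1.56%, lay below their shares of 2.06% and 2.79% over all regions. The E-box CAGGTG, read by ZEB and E proteins, was found in 10.5% of members, in 19.5% of the p30-only and in 5.65% of the p42-only regions.

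AP-1 words gathered at the summits of the EV-only regions. In the 20 bp before the summit there were 47.4 matches per 1000 regions and in the 20 bp after it 42.4, and in the outermost bins there were 9.08 and 12.1. Of 496 matches, 186, or 37.5%, had their centre within 20 bp of the summit. For GATA the highest bin, directly after the summit, held 13.1 matches per 1000, and 49 of 158 matches, 31%, lay within 20 bp. In the p30-only regions 34.0% of the AP-1 matches and 21.2% of only 52 GATA matches lay that close, and in the p42-only regions 27.8% and 16.3%. In windows shifted by 1000 bp to either side of the EV-only summits, AP-1 words occurred in 5.82% (5.14 to 6.60) and GATA words in 2.65% (2.19 to 3.19). These flanking shares resembled those of the p30-only regions, 6% and 3.11%.

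Most AP-1 members, 367 of 448, held the canonical form of the word. This form, with C or G in the middle, was found in 18.5% (16.9 to 20.3) of EV-only regions, 11.8% of p30-only, 5.74% of p42-only and 9.48% of all regions. With A or T in the middle the shares were 5.09% (4.21 to 6.15), 4.38%, 3.40% and 3.85%. The CRE word TGACGTCA, searched for apart from the AP-1 word, was found in 2 members, 0.101% (0.0277 to 0.367), against 0.217% of all regions. The looser GATA word GATAAG was found in 12.5% (11.1 to 14) of EV-only regions and in 5.45% to 6.78% of the other sets. The core GATAA was found in 33.3% of EV-only regions and in 21.4% to 23.5% of the others.

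The common regions were cut by GC content into 3 groups of like size. Members of the lowest group held GATA words in 10.1% (8.17 to 12.4), against 4.32% of all regions and 2.88% of the p30-only regions in that group. In the middle group the EV-only share was 8.42% (6.56 to 10.8), against 3.67% of all regions. In the highest group it was 2.81% (1.71 to 4.58), an interval that includes the 1.78% of all regions. AP-1 words were found in 24.7%, 23.6% and 18.2% of the members in the lowest, middle and highest group, against 14.4%, 15.2% and 9.35% of all regions.

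Among the stronger members the shares of both words were as high or higher, with intervals that overlap. With −log10 q of at least 3 in both EV lists, 211 of 850 members held AP-1 words, 24.8% (22 to 27.8), and 67 held GATA words, 7.88% (6.25 to 9.89). With at least 4, the shares were 26.7% (21.7 to 32.3) and 10.5% (7.38 to 14.8) of 266. With at least 5, they were 31% (20.6 to 43.8) and 15.5% (8.38 to 26.9) of 58. In the p30-only regions the AP-1 share at the same limits was 16.3%, 16.3% and 23.9% (15.3 to 35.3), and the GATA share 2.45%, 3.50% and 5.97% (2.35 to 14.4), the last of each from 67 regions. At the limit of 5 both intervals overlap those of the EV-only regions. In the p42-only regions the GATA share lay between 2.24% and 2.41%.

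For both words the EV pair had the highest share of the 15 pairs of lists. Across the other 14 pairs the GATA share of regions held by exactly 2 lists ran from 2.37% to 4.45%, with a median of 2.98%, below the 7.56% of the EV pair. The AP-1 share ran from 8.98% to 20.5%, below 22.6%. The pairs of an EV with a p30 list were nearest for AP-1, at 17.4% to 20.5%. Regions held by only the EV DMSO list had GATA words in 3.90% and those held by only the EV Tm list in 4.15%. For AP-1 both were at 15%. Of the 4094 regions in both EV lists and 1 other list, 5.35% held GATA and 20.5% AP-1 words. The AP-1 share depended on the other list, at 26.7% of the 923 regions with p30 Tm and 21.5% of the 1581 with p30 DMSO, against 18.7% with p42 Tm and 14.6% with p42 DMSO. The AP-1 share of the EV-only regions was thus below that of the regions that p30 Tm also held. The GATA shares of these 4 groups ran from 4.27% to 6.14%. Among all 143049 regions in both EV lists the shares were 3.51% for GATA and 14.6% for AP-1. These sets share lists and libraries, so they are not independent of each other.

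**Figure D1:**
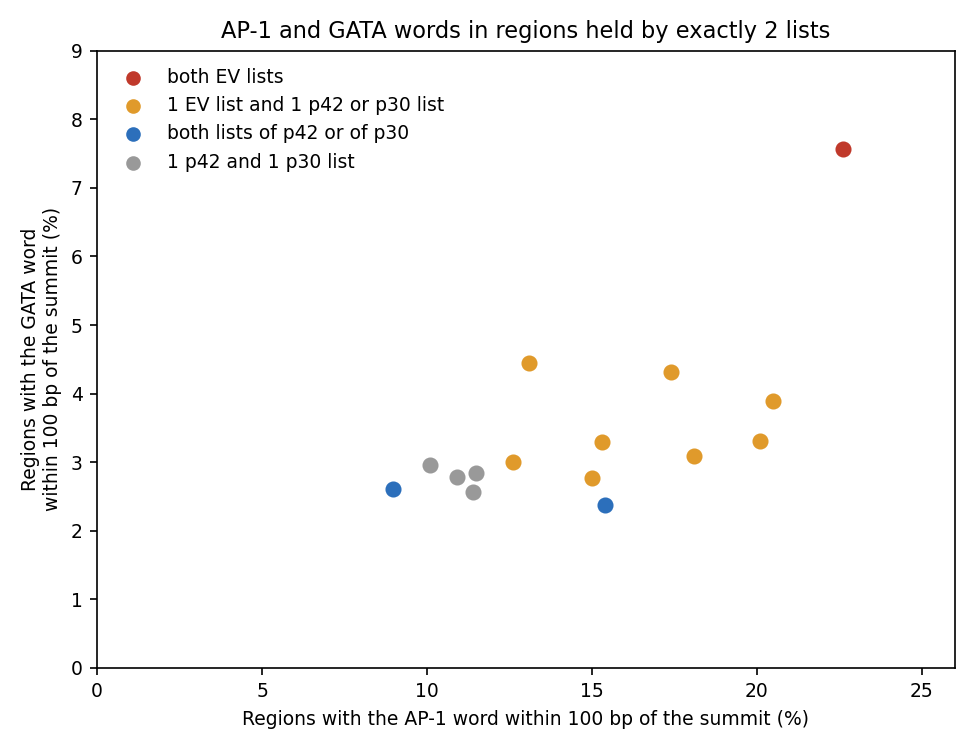
Share of regions with the GATA word (y axis, percent) against the share with the AP-1 word (x axis, percent) for the regions held by exactly 2 lists, 1 point for each of the 15 pairs of lists. The pair of EV lists stands at 22.6% and 7.56%, and the other 14 pairs lie at or below 20.5% and 4.45%.

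Both words were found together in 33 members, and neither in 1418, or 71.5%. GATA words were in 7.37% of the AP-1 members, close to their 7.56% of all members, and AP-1 words in 22% of the GATA members, close to their 22.6% of all members. Within 1000 bp of a start site lay 5 of the 150 GATA members, 40 of the 448 AP-1 members, 192 of the 1418 with neither word and 0 of the 33 with both. The median distance to a protein-coding start site was 53858 bp for GATA members, 47484 bp for AP-1 members and 37694 bp for the rest. Their median summit heights were like those of the other members, at 6 tags in EV DMSO for all 3 groups and between 6 and 7 tags in EV Tm. AP-1 members were higher in EV Tm in 199 regions and in EV DMSO in 153, and GATA members in 65 and 50.

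The strongest member was on chromosome 8 at 99046482 to 99046604, in an intron of VPS13B, a gene of Golgi membrane traffic. It had 10 tags at −log10 q 8.64 in EV DMSO and 11 tags at 9.42 in EV Tm, and its window held a GATA word. The LGR4 intron, nearest to the start of CCDC34, had the same 10 and 11 tags. The COA8 region had 9 and 10 tags, and the IPO8 region 9 in both. TSPAN15, a tetraspanin that binds the protease ADAM10, had a member 4660 bp upstream with 16 and 14 tags and a p42 or p30 peak only 142 bp away. In each of these regions the heights in both EV lists were within 2 tags of each other.

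The other members of the strongest 10 held neither word. A region 33064 bp upstream of FLI1, an ETS factor of blood stem cells and megakaryocytes, had 11 tags in EV DMSO and 9 in EV Tm. The region in an intron of ENAH, an actin regulator, had the same 11 and 9 tags and a RUNX word. A region 344 bp downstream of a start site of C17orf75 had 13 and 14 tags. The last 2 were an exon where BDH2 and SLC9B2 overlap, with 16 and 19 tags, and a region on chromosome 3 far from any protein-coding start, with EPHA3 nearest, with 9 in both.

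Assigning each member to the nearest protein-coding start site within 100 kb placed members at 1258 of 19618 genes, or 6.41%. The p42-only regions reached 35.8% of genes and the p30-only regions 6.93%. A single member was the rule, with 1171 genes, while 81 genes had 2, 5 had 3 and 1 had 4. The gene with 4 was SIPA1L1, which encodes a GTPase-activating protein for Rap and has 78 common regions. One of its members, in an intron at 71576634 to 71576718 of chromosome 14, had 8 tags in EV DMSO, 4 in EV Tm and an AP-1 word. Another, at 71588146 to 71588274, had 5 and 9 tags and an AP-1 word. Their order between treatments was thus opposite.

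The genes with 3 members were SPON1, FLT1, LPAR1, LYPD6B and KLF10. FLT1, a receptor for VEGF, had a member 140 bp upstream of its start site with 11 tags in each list, and a second in an intron with 7 and 6 tags. A p42 or p30 peak lay 145 bp from the first and 2393 bp from the second. The third FLT1 member, 10040 bp upstream, had such a peak 270 bp away. LPAR1, a receptor for lysophosphatidic acid, had an intronic member with a GATA word, with 7 tags in EV DMSO and 6 in EV Tm. Another of its members lay on a sequence found 6 times in the genome, with 4 tags in each list. KLF10, a zinc-finger repressor induced by TGF-β, had 3 members outside the gene, the highest with 11 tags in EV DMSO and 8 in EV Tm. None of these genes had a member above 11 tags.

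Among the members within 1000 bp of a protein-coding start site, C17orf75 was the strongest. INPP4A, a phosphoinositide phosphatase, had a member 724 bp upstream of a start site with 9 tags in EV DMSO, 11 in EV Tm and an AP-1 word. TBL1X, a subunit of the NCoR corepressor complex, had 7 and 11 tags 382 bp downstream of a start site. RTKN2, PLB1 and PRR5 had 15 and 14, 9 and 8, and 15 and 18 tags. GNAS, which encodes a stimulatory G protein subunit, had 7 tags in both lists at one of its start sites. A p42 or p30 peak lay within 500 bp of the members at C17orf75, RTKN2, PRR5 and GPR85.

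The 13 gene lists held 18 members among 4039 common regions, or 0.446% (0.282 to 0.703), against 0.535% of regions assigned to any protein-coding gene. The list of stem and progenitor regulators held 7 of 851, 0.823% (0.399 to 1.69), an interval that includes the share over all genes. Its members were assigned by the nearest start site to CD34, FLI1, LYL1, MEIS1, MSI2, MYB and PBX3, with 1 for each gene. The LYL1 member lay in an exon of TRMT1, 1770 bp upstream of the LYL1 start. The member nearest to MEIS1, a homeobox partner of HOX proteins, lay 45090 bp upstream with 6 tags in EV DMSO and 7 in EV Tm and held an AP-1 word, and the nearest p42 or p30 peak was 31302 bp away. The member at PBX3 had 7 and 9 tags in an intron, and that at MYB, 44217 bp downstream of the start, had 8 in both. The member assigned to CD34, a surface marker of blood progenitors, had 5 and 6 tags and lay 99986 bp upstream. A p42 or p30 peak lay 87 bp from the LYL1 member, 194 bp from PBX3 and 267 bp from MSI2. For MYB, CD34 and FLI1 the nearest such peak lay 951, 1087 and 2071 bp away.

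For each list of mature lineages and of stress and inflammatory genes, the interval of the share included the 0.535% of all genes. Below, a member is called near a gene whose start site is the nearest within 100 kb. T and NK cell genes held 3 of 437, or 0.686%, near GATA3, RORA and TCF7. The GATA3 member lay 74494 bp downstream of the start, and the RORA member lay 69 bp downstream with 4 and 6 tags. The mast cell, basophil and eosinophil list held 1 of 266, near HPGDS, the hematopoietic prostaglandin D synthase, with 5 tags in EV DMSO, 9 in EV Tm and a GATA word. The granulocyte and monocyte list held 1 of 343, near the repressor GFI1, and the megakaryocyte and erythroid list 1 of 187, near ITGB3, the integrin β3 of platelets. Inflammatory mediators held 2 of 298, or 0.671%, near IL1B and IL12B, and the member near IL12B held an AP-1 word. The unfolded protein and integrated stress response list held 1 of 234, near HERPUD1. The B cell genes held 1 of 265, near IKZF3. A p42 or p30 peak lay 87 bp from the RORA member, 103 bp from TCF7 and 105 bp from GATA3. It lay 106 bp from ITGB3, 109 bp from GFI1 and 113 bp from HPGDS. For HERPUD1 and IL12B it lay 184 and 337 bp away, and for IL1B and IKZF3 3477 and 4153 bp.

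No member was assigned to genes of AP-1 proteins and their partners, among 320 common regions, which allows a share of up to 1.19% by the upper bound of the interval. Likewise 0 of 87 regions at C/EBP genes, 0 of 200 at NF-κB subunits and inhibitors and 0 of 324 at E2F and cell cycle genes were EV-only, with upper bounds of 4.23%, 1.88% and 1.17%. Each of these bounds lies above the 0.535% of all genes, so a difference from other genes was not detectable at these numbers.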

How the data were processed

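ATAC-seq libraries of 12 samples (2 replicates in each of 6 conditions) were processed by the authors. Per the labels and the methods, reads were trimmed with Trim Galore 0.6.6 and aligned to hg38 with Bowtie2 2.4.4, duplicates were removed with Picard, and peaks were called with MACS2 on pooled replicates. The methods give 1 description for both assays and name no shift of Tn5 insertions, mapping quality filter or removal of repeats. The deposited peak lists give, for each peak, its position, an integer score that follows the −log10 q-value, the fold enrichment at the summit as a ratio over local background, the −log10 p-value, the −log10 q-value and the summit offset in bp. These lists hold 187704 to 254239 peaks.

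From these, peaks of chromosomes 1 to 22 and X were merged at an overlap of 1 bp. The tags at each summit were solved from fold and p as whole numbers (tolerance 0.01), and depth from the lowest background and a genome of 2700000000 bp. The depth assumes that each tag was extended to the length of the shortest peak in its list (57 to 60 bp), since the calling command is not given in the sources used here, and it scales with that length. The solver and the merging were tested on simulated data. Percentiles are midranks of −log10 q in a list. Genes came from GENCODE on hg38. Motif words were searched on both strands within 100 bp of the summit, and shares carry 95% Wilson intervals. Named regions are the 10 strongest by the lower of both −log10 q values, those of the 10 genes with most members, the 10 strongest at protein-coding start sites, and members at genes of the 13 lists (232 genes). The regions, motif words and lists were chosen with earlier results of these data known. No test was made, since each condition has a single pooled list. Alternatives are given in the closing section. Some named items, among them the member of 1 gene list, are not reported here. Python 3.11.15, numpy 2.4.6, pandas 2.3.3 and matplotlib 3.10.9 were used.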

Additional observations from a re-analysis of the deposited data

How the results depend on the processing

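No paired analysis was possible because only 1 list of pooled replicates per condition was used, so no replicate could be blocked or left out. Of 47 alternative values, 30 stayed within a factor of 1.5 for a count or within the 95% interval of the reported share, and 17 moved. Asking −log10 q of 5 in both EV lists left 58 regions, a promoter share of 10.3%, AP-1 words in 31%, C/EBP words in 1.72% (1 region) and GATA words in 15.5%. Without members that had a p42 or p30 peak within 500 bp, the promoter share was 8.62% and the AP-1 share 24.8%. With 50% overlap and no merging, the AP-1 share was 20.5%. Counting start sites within 500 bp or 2000 bp gave promoter shares of 8.22% and 17.9%, against 11.4% and 21.6% of all regions. A window of 50 bp gave AP-1 words in 17.0% and GATA words in 4.59%, and 1 of 200 bp gave 28.0% and 11.5%, with C/EBP words in 1.06%, while all regions held 8.44%, 1.60%, 18.7%, 6.19% and 2.41%. The canonical AP-1 word alone gave 18.5%, and the looser GATA word 12.5%. The number of regions rose to 2706 with equally long lists and to 2820 with only the p42 lists shortened. The alternatives for GATA, the canonical AP-1 word, repeated summit sequence and shortened p42 lists were chosen after the data had been seen. The cause of each move was not tested beyond what the setting itself changes. Pooled lists, heights of a few tags and calls near the limit bound every value here, and a missing peak does not show closed chromatin.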
